A study of Mus musculus with 8 samples.

Results

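Of the 45706 genes in the deposited table, 10 genes of the insulin and insulin-like growth factor (IGF) receptor pathway are described here, taken by symbol. They are the receptor genes Insr, Igf1r and Igf2r, the docking protein genes Irs1, Irs2 and Irs4, the PI3-kinase subunit genes Pik3ca and Pik3r1, the transcription factor gene Foxo1 and the phosphatase gene Ptpn1. All 10 passed the filter on low counts, as did 17000 genes in all. The data are RNA sequencing of the mouse hypothalamus by translating ribosome affinity purification (TRAP), in which ribosomes that carry GFP-tagged RpL10a are captured with antibodies against GFP. There were 4 libraries of captured, ribosome-bound RNA (IP) and 4 libraries of whole-tissue RNA (input). Mice of both fractions carried the alleles Mff fl/fl, AgRP-IRES-Cre tg/wt and RpL10a-GFP fl/wt, so Mff, the gene of mitochondrial fission factor, was targeted in both. Cre is driven from the Agrp locus, and the cells that express it are those whose ribosomes are tagged. Every library pooled tissue from 3 mice, males and females, taken at 11 to 12 weeks of age in the random-fed state. The labels do not say whether IP and input libraries of one number came from the same pool, and p-values measure the spread between these pooled libraries. Libraries of control mice with wild-type Mff are not analysed here, so the comparison is of IP with input within the knockout, and no effect of the deletion was measured.

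Insulin and IGF1 bind receptor tyrosine kinases at the cell surface. The active receptors phosphorylate docking proteins of the IRS family, which recruit PI3-kinase. PI3-kinase makes the membrane lipid PIP3, which leads to activation of AKT, and AKT keeps FoxO transcription factors out of the nucleus. AgRP neurons of the arcuate nucleus promote feeding. Insulin is known to act on these neurons, and FoxO1 is known to raise transcription of Agrp.

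The promoters of the docking protein genes and of Igf2r are shown because they hold short sequences in common that set them apart from the promoters of the other genes described. Promoter windows of 250 bases before to 50 bases after the annotated start came from RefSeq (GRCm38.p6) and matched 9 of the 10 genes, with 10 windows in all, since Pik3r1 had 2. Insr had no entry. Positions count from the RefSeq starts. The windows of Irs2, Pik3ca and Igf1r lie wholly upstream of these genes by the GENCODE M21 coordinates given below. The letters searched on both strands were CACGTG (an E-box), TGTTTTG (known as an insulin response element), TGTTTAC (a FoxO consensus) and TGACGTCA (a cAMP response element). Capitals mark every match.
Irs4 (chrX:141725168-141725467, minus strand): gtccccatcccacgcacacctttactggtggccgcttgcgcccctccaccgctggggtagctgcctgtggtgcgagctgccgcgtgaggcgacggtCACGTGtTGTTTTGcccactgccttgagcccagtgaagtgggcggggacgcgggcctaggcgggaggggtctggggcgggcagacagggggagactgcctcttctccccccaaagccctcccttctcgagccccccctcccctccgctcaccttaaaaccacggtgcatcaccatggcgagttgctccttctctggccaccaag
Irs2 (chr8:11008880-11009179, minus strand): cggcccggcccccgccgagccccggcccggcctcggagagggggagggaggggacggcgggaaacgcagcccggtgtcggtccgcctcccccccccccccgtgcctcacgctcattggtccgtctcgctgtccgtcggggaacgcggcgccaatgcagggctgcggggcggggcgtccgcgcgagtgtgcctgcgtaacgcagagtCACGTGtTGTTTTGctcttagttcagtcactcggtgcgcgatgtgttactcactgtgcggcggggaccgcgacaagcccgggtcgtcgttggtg
Irs1 (chr1:82291390-82291689, minus strand): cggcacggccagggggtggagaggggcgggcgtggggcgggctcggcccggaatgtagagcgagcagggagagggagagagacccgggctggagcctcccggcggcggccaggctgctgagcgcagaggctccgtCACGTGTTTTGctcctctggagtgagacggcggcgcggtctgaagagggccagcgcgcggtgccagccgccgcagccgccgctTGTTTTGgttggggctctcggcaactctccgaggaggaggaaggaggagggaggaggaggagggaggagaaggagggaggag
Igf2r (chr17:12769657-12769956, minus strand): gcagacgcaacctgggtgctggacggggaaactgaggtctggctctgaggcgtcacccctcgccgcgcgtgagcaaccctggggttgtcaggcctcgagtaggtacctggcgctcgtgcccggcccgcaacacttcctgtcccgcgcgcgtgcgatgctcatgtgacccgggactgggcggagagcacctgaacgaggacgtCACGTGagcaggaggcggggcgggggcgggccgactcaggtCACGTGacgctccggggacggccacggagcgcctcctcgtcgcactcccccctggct

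The E-box letters were in the windows of 4 of the 9 genes, Irs1, Irs2, Irs4 and Igf2r, and in 7.15% of all 32851 promoter windows. The insulin response element was in those of the 3 docking protein genes and in 6.28% of all windows. In each docking protein gene an insulin response element followed the E-box along the strand printed above. The E-box letters read the same on both strands, so the E-box itself has no direction. It lay 1 base further on in Irs2 and Irs4, and in Irs1, which had another copy at position -32, it overlapped the E-box by 2 bases. Irs2 and Irs4 shared an identical run of 17 bases there, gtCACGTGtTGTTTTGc, which began at position -46 from the annotated start of Irs2 and at -156 from that of Irs4, and no other window of the table held it. The FoxO consensus and the cAMP response element, present in 3.65% and 1.79% of all windows, were in none of the windows of these 9 genes. A match describes letters only. The 3 docking protein genes, whose windows each held both the E-box and the insulin response element, differed widely in their levels and in their IP to input ratios, as described next.

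**Figure D1:**
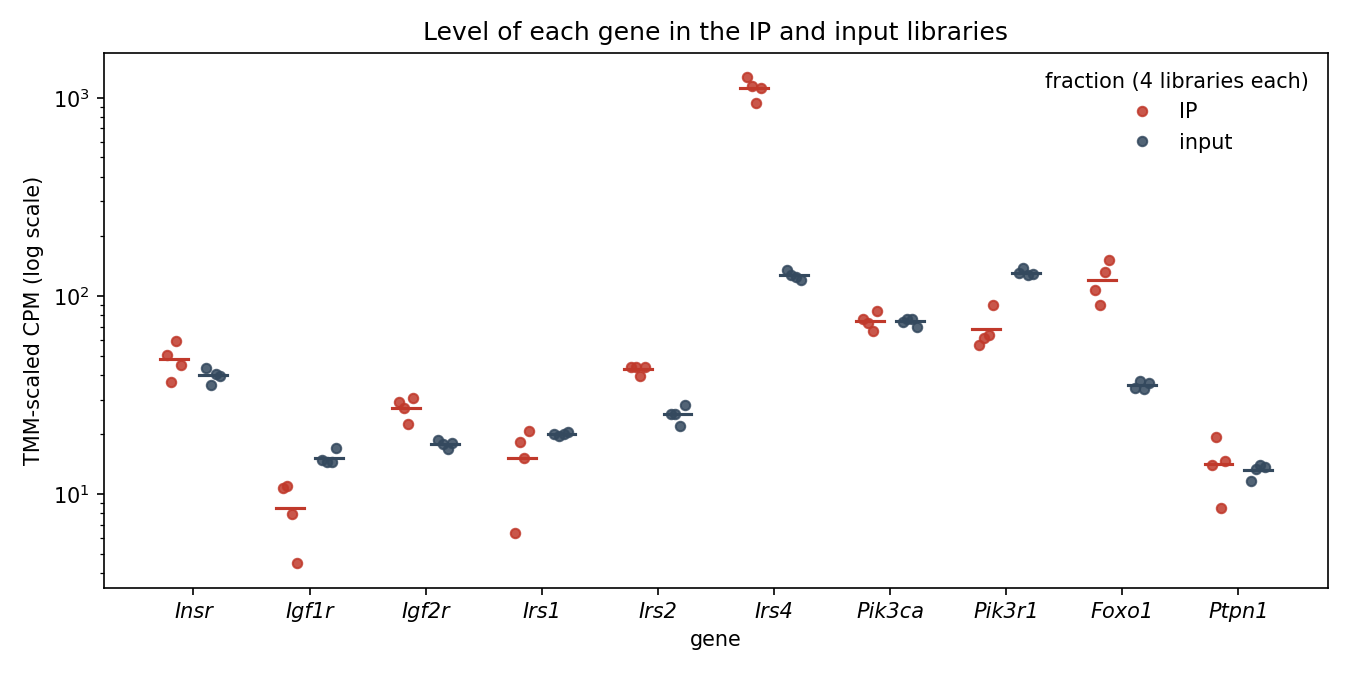
CPM (counts scaled to 1000000 per library with TMM factors, log axis) of the 10 genes in each of 4 IP and 4 input libraries, with a line at each mean. The IP libraries lie apart from the input libraries for Irs4, Foxo1, Irs2 and Igf2r (above) and for Pik3r1 and Igf1r (below), and overlap them for Insr, Irs1, Pik3ca and Ptpn1.

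Libraries held 39902127 to 64757979 estimated counts in IP and 44112823 to 74607637 in input. Mff stood at 64.0 to 71.2 CPM in IP and 112.2 to 131.9 CPM in input, and with no control genotype analysed here these values do not check the deletion. Among the 12 markers of AgRP neurons, IP was higher for 11 and lower for 0, with a summed level of 3533 to 5134 CPM in IP against 166 to 180 CPM in input, and Agrp itself reached 803, 801, 683 and 1083 CPM in IP, in the order of the replicates. All 10 astrocyte markers and all 11 oligodendrocyte lineage markers were lower in IP, with medians on the log2 fold change scale of -1.58 and -1.80. No marker of these lists was at 0 in every IP library: astrocyte markers summed to 977 to 1349 CPM in IP against 3024 to 3758 CPM in input. The part of this RNA in the results was not tested. IP replicate 3 stood apart from the other IP libraries. Set against each of them it gave a chi-square of 222 to 329 per degree of freedom across genes, while pairs of the others gave 47.1 to 60.2. Leaving it out changed none of the calls on the 10 genes, and the log2 fold changes that moved most were those of Ptpn1, to 0.28, and Insr, to 0.15.

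Of the 10 genes, 4 were higher in IP and 2 lower, and 4 were not past the threshold, which was 0.05 on the adjusted p over all genes in the quasi-likelihood test of edgeR. Over all genes tested 24.5% were higher and 20.9% lower by the same rule. The median log2 fold change was 0.19 over the 10 genes and -0.013 over all genes tested. The numbers higher and lower over all genes, 4171 and 3545, became 3342 and 4384 with upper quartile factors, which moved the median of all genes by -0.13. The 6 genes called were also those whose IP and input libraries did not overlap, which held for 24.1% of all genes as higher and 24.0% as lower. Fewer cells of a type and less RNA per cell cannot be told apart in such bulk samples. Each fold change compares a gene's share of the RNA of its library.

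**Figure D2:**
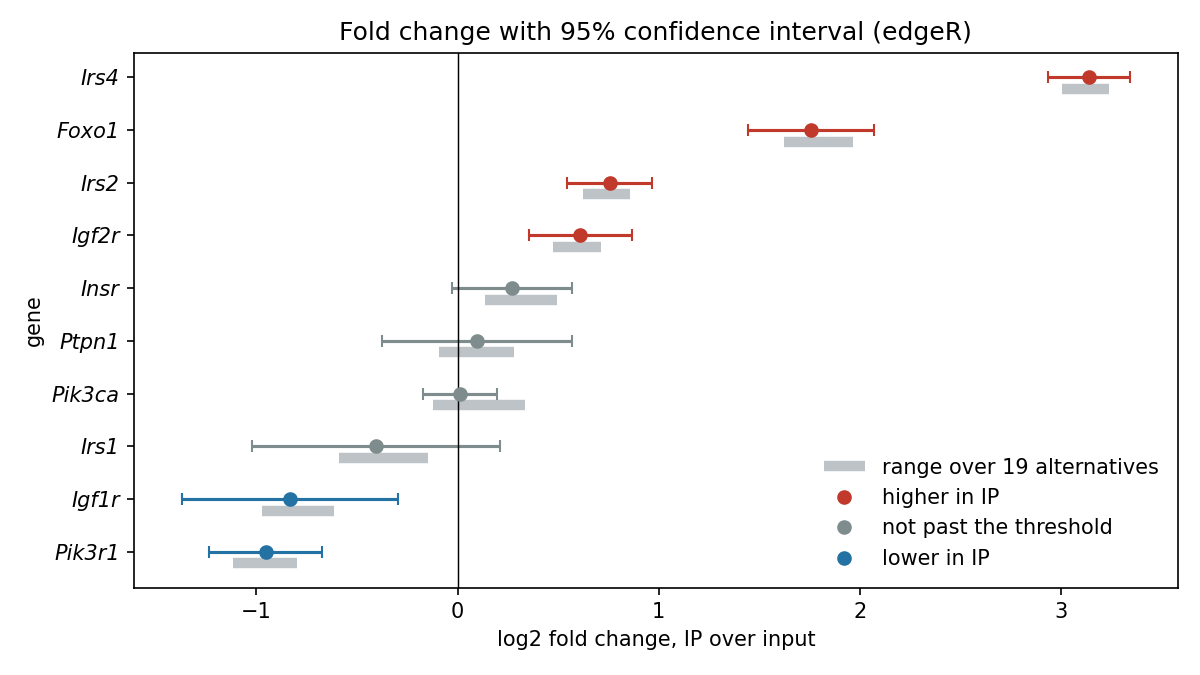
Log2 fold change of IP over input for each gene, with the 95% confidence interval from edgeR as a bar through the point, and below it in grey the lowest and highest value over the 19 alternative analyses. Irs4 (3.14) and Foxo1 (1.76) lie farthest above 0 and Pik3r1 (-0.95) and Igf1r (-0.83) farthest below it, while the intervals of Insr, Irs1, Pik3ca and Ptpn1 include 0.

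The receptor genes did not move together: Igf2r was higher in IP, Igf1r was lower, and Insr was not past the threshold. Insr (ENSMUSG00000005534, chromosome 8, 3122061 to 3279617, minus strand, GRCm38) encodes the insulin receptor. It had 50.6, 36.8, 59.3 and 44.9 CPM in IP replicates 1 to 4, against 43.4, 35.4, 40.3 and 39.6 CPM in input replicates 1 to 4. The fractions overlapped, with IP replicate 2 within the range of the input and IP replicate 3 the highest of all libraries. On the log2 scale Insr differed by 0.27 ± 0.14 between the fractions (SE, n = 4 each), with a 95% confidence interval of -0.026 to 0.57 and an adjusted p of 0.126 in edgeR. The gene passed the threshold as higher without IP replicate 2 (0.38, adjusted p = 0.0211), with library totals alone (0.38, adjusted p = 0.0442) and with offsets for GC content and transcript length (0.50, adjusted p = 0.00713).

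Igf1r (ENSMUSG00000005533, chromosome 7, 67952827 to 68233668, plus strand) encodes the IGF type 1 receptor, the receptor kinase for IGF1. Its level was 10.8, 11.0, 7.98 and 4.48 CPM in IP replicates 1 to 4, against 14.8, 14.6, 14.6 and 17.2 CPM in input replicates 1 to 4. Every IP library was below every input library. IP replicate 4 was the lowest with 178 counts, and input replicate 4 the highest. The log2 fold change was -0.83 ± 0.24 (SE, n = 4), with an adjusted p of 0.0161 in edgeR. Igf1r was no longer called once input replicate 4 was left out (-0.76, adjusted p = 0.0574), nor when offsets corrected for GC content and length (-0.61, adjusted p = 0.0557).

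Igf2r (ENSMUSG00000023830, chromosome 17, 12682406 to 12769664, minus strand) encodes the receptor that binds IGF2 and mannose 6-phosphate, carries lysosomal enzymes and has no tyrosine kinase. Igf2r had 29.2, 27.2, 22.5 and 30.4 CPM in IP replicates 1 to 4, against 18.7, 17.8, 16.9 and 18.1 CPM in input replicates 1 to 4. The fractions were separate, and the gene was 1.53-fold higher in IP with a log2 fold change of 0.61 ± 0.12 (SE, n = 4) and an adjusted p of 0.00128 in edgeR. Airn, an antisense RNA gene that overlaps Igf2r, stood at 0.664 to 1.27 CPM in IP and 0.628 to 1.35 CPM in input. Its part in the counts of Igf2r was not tested.

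Among the docking protein genes Irs4 stood far above the others in IP. Irs4 (ENSMUSG00000054667, chromosome X, 141710998 to 141725263, minus strand) had 1268, 1140, 941 and 1122 CPM in IP replicates 1 to 4, against 134.6, 126.9, 124.7 and 120.9 CPM in input replicates 1 to 4. The lowest IP library, replicate 3, was still above the highest input library by a wide margin. The gene was 8.82-fold higher in IP, ranked 77 of 17000 genes by log2 fold change, and had an adjusted p of 1.33e-09 in edgeR with a log2 fold change of 3.14 ± 0.092 (SE, n = 4). Per kilobase of transcript its level was at the 98.3rd percentile of tested genes in IP and the 87.5th in input.

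Irs2 (ENSMUSG00000038894, chromosome 8, 10984681 to 11008458, minus strand) encodes a docking protein known for its part in energy balance in the hypothalamus. It had 43.9, 43.8, 39.5 and 43.5 CPM in IP replicates 1 to 4, against 25.4, 25.4, 22.2 and 28.0 CPM in input replicates 1 to 4. IP and input were separate, and the spread among IP libraries was the smallest of the 10 genes, with a coefficient of variation of 4.99%. Irs2 had a log2 fold change of 0.76 ± 0.096 (SE, n = 4), a 1.69-fold difference, with an adjusted p of 6.61e-05 in edgeR. Irs1 (ENSMUSG00000055980, chromosome 1, 82233101 to 82291416, minus strand), the gene of the docking protein best known from muscle and growth, had 6.37, 18.4, 15.3 and 20.8 CPM in IP replicates 1 to 4, against 20.2, 19.6, 20.1 and 20.6 CPM in input replicates 1 to 4. The input libraries were nearly equal, and IP replicate 1 stood well below the others. The log2 fold change of Irs1 was -0.41 ± 0.28 (SE, n = 4), with a 95% confidence interval of -1.02 to 0.21 and an adjusted p of 0.267 in edgeR, and without IP replicate 1 it was -0.15. The gene Gm9747, which overlaps Irs1 on the opposite strand, stood at 0 to 1.50 CPM in IP and 5.39 to 5.54 CPM in input, and its part in the counts of Irs1 was not tested.

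As a share of the 3 docking protein genes, counted as CPM per kilobase, Irs4 took 95.4% ± 0.62 in IP and 76.5% ± 1.6 in input (SD, n = 4 libraries each). Irs2 took 3.65% ± 0.26 in IP and 15.2% ± 1.4 in input, although its own level was higher in IP. The share of Irs1 was 0.917% ± 0.40 in IP and 8.37% ± 0.35 in input. Irs3 held 4 to 24 counts in an IP library and 3 to 14 in an input library and was not tested. Insr took 87.0% ± 5.4 of the sum of Insr and Igf1r in IP and 76.0% ± 2.0 in input, with every IP library (80.4% to 92.4%) above every input library (73.8% to 78.1%). These shares are descriptions of each library and were not tested.

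**Figure D3:**
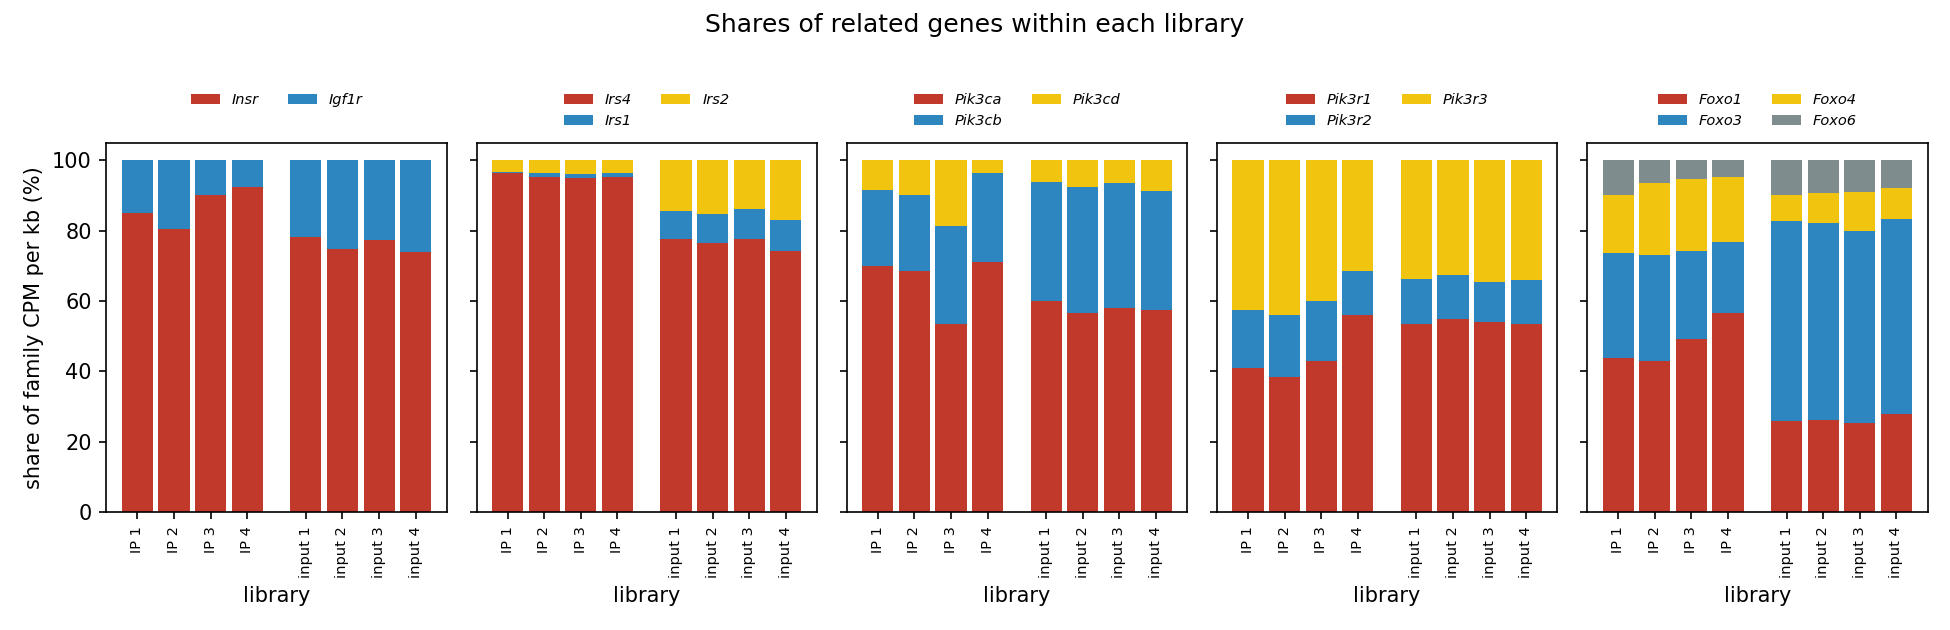
Shares of related genes within each library, as a percentage of the family's summed CPM per kilobase, with the 4 IP libraries left of the 4 input libraries in each panel. Irs4 and Foxo1 take a larger share in every IP library (at least 94.97% and 42.9%) than in any input library (at most 77.6% and 27.8%), while the shares of Pik3ca and Pik3r1 overlap between the fractions.

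The PI3-kinase genes split, with Pik3r1 lower in IP and no change called for Pik3ca. Pik3ca (ENSMUSG00000027665, chromosome 3, 32397671 to 32468486, plus strand) encodes the catalytic subunit p110 alpha, the form that acts downstream of the insulin receptor in many tissues. It had 76.1, 72.9, 66.6 and 84.3 CPM in IP replicates 1 to 4, against 74.2, 76.5, 76.8 and 69.7 CPM in input replicates 1 to 4. The ranges overlapped. Pik3ca had a log2 fold change of 0.012 ± 0.083 (SE, n = 4), with an adjusted p of 0.919 in edgeR and a 95% confidence interval of -0.17 to 0.19. With GC and length offsets Pik3ca was called higher (0.33, adjusted p = 0.0195). Its transcript is the poorest in GC among the 10 genes, at 41.2%.

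Pik3r1 (ENSMUSG00000041417, chromosome 13, 101680563 to 101768217, minus strand) encodes the regulatory subunits p85 alpha, p55 alpha and p50 alpha, which bind the docking proteins and hold the catalytic subunit. Its level was 56.5, 61.2, 63.6 and 89.7 CPM in IP replicates 1 to 4, against 130.6, 138.1, 127.6 and 128.6 CPM in input replicates 1 to 4. Every IP library was below every input library, and IP replicate 4 lay apart from the other IP libraries. The log2 fold change was -0.95 ± 0.13 (SE, n = 4), with an adjusted p of 9.33e-05 in edgeR. Without IP replicate 4 it was -1.11.

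Of the paralogues of these subunits, Pik3cb and Pik3r3 were called lower and Pik3cd and Pik3r2 were not past the threshold. Pik3cb, the gene of p110 beta, was lower in IP (log2 fold change -0.69 ± 0.14, adjusted p = 0.00238 in edgeR, n = 4), and Pik3r3, the gene of p55 gamma, was lower too (-0.46 ± 0.1, adjusted p = 0.00292). Pik3cd, the gene of p110 delta, had 0.35 ± 0.41, which became -0.20 without IP replicate 3. Pik3r2, the gene of p85 beta, had -0.31 ± 0.15 (adjusted p = 0.109). Of the summed CPM per kilobase of Pik3r1, Pik3r2 and Pik3r3, Pik3r1 took 44.5% ± 7.9 in IP and 53.9% ± 0.62 in input (SD, n = 4), and IP replicate 4, at 56.1%, lay above all input libraries. Pik3ca took 65.7% ± 8.2 of its family in IP and 57.9% ± 1.4 in input, with IP replicate 3 lowest at 53.5%.

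Foxo1 had the second largest increase among the 10 genes. Foxo1 (ENSMUSG00000044167, chromosome 3, 52268336 to 52353221, plus strand) had 107.1, 89.9, 131.4 and 151.3 CPM in IP replicates 1 to 4, against 34.3, 37.1, 33.9 and 36.6 CPM in input replicates 1 to 4. All IP libraries were above all input libraries, and the highest was IP replicate 4. The log2 fold change was 1.76 ± 0.14 (SE, n = 4), a 3.38-fold difference, with an adjusted p of 2.04e-06 in edgeR. Foxo4 was also higher (1.94 ± 0.17, adjusted p = 4.18e-06), with 14.6, 15.6, 19.97 and 17.9 CPM in IP replicates 1 to 4, against 3.69, 4.44, 5.35 and 4.21 CPM in input replicates 1 to 4. For Foxo6 the difference was 0.40 ± 0.27 on the log2 scale (adjusted p = 0.249). Foxo3 had -0.23 ± 0.096 (adjusted p = 0.0683) and was called lower under other scalings, with RLE (-0.27, adjusted p = 0.0451) and with upper quartile factors (-0.37, adjusted p = 0.00903), and also when genes needed 1 CPM in 4 libraries (-0.25, adjusted p = 0.0478), with DESeq2 (-0.27, adjusted p = 0.0281) and without IP replicate 1 (-0.29, adjusted p = 0.0255). Of the 4 FoxO genes' summed CPM per kilobase, Foxo1 took 48.1% ± 6.3 in IP and 26.2% ± 1.1 in input, and Foxo3 took 26.3% ± 4.6 in IP and 55.8% ± 0.93 in input (SD, n = 4).

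Ptpn1 (ENSMUSG00000027540, chromosome 2, 167932057 to 167979385, plus strand) encodes the tyrosine phosphatase PTP1B, which removes phosphate from the insulin receptor and acts on leptin signalling. It had 14.0, 19.5, 8.53 and 14.7 CPM in IP replicates 1 to 4, against 11.6, 13.4, 14.0 and 13.8 CPM in input replicates 1 to 4. The IP libraries spread on both sides of the input. Its log2 fold change was 0.099 ± 0.21 (SE, n = 4), with a 95% confidence interval of -0.37 to 0.57 and an adjusted p of 0.740 in edgeR.

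Ordered by CPM per kilobase in IP, the genes ran Irs4 (178 ± 21), Foxo1 (13.8 ± 3.1), Pik3r1 (9.53 ± 2.1), Pik3ca (8.41 ± 0.83), Irs2 (6.75 ± 0.34), Insr (5.12 ± 1.0), Ptpn1 (3.36 ± 1.1), Igf2r (3.07 ± 0.39), Irs1 (1.66 ± 0.69) and Igf1r (0.750 ± 0.27; SD, n = 4). Neighbours in this order overlapped in their libraries except at 3 steps, those below Irs4, Pik3ca and Igf2r. In input, Irs4 (20.1 ± 0.92) and Pik3r1 (18.4 ± 0.67) led with overlapping libraries, and Foxo1 (4.09 ± 0.19) lay between Insr (4.24 ± 0.36) and Irs2 (3.99 ± 0.38), all overlapping. Igf1r was the lowest in both fractions, at 1.34 ± 0.11 in input. The coefficient of variation of CPM was larger in IP for 9 of the 10 genes, with Irs2 the exception, and for 88.6% of all genes tested.

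Likeness to the profile of Irs4 was measured by Euclidean distance between centred log2 CPM over the 8 libraries. Candidates were the 8160 other genes that averaged 10 CPM or more, with predicted genes (Gm or RP numbers, Rik) left out. The 5 genes most like Irs4 were Plagl1 (distance 0.38), Arhgap6 (0.40), Cngb1 (0.40), Dgkk (0.53) and Esyt3 (0.53). Plagl1 encodes a zinc finger transcription factor, Arhgap6 a GTPase-activating protein, Cngb1 a cyclic nucleotide-gated channel subunit, Dgkk a diacylglycerol kinase and Esyt3 an extended synaptotagmin. Their log2 fold changes ran from 2.86 to 3.34. Likeness here follows mainly from a similar difference between the fractions.

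The rest of the pathway moved in both directions. Of 85 further genes listed by role, 76 were tested, of which 22 were higher in IP and 23 lower, with a median log2 fold change of -0.049. Those are 28.9% and 30.3%, against 24.5% and 20.9% over all genes tested.

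**Figure D4:**
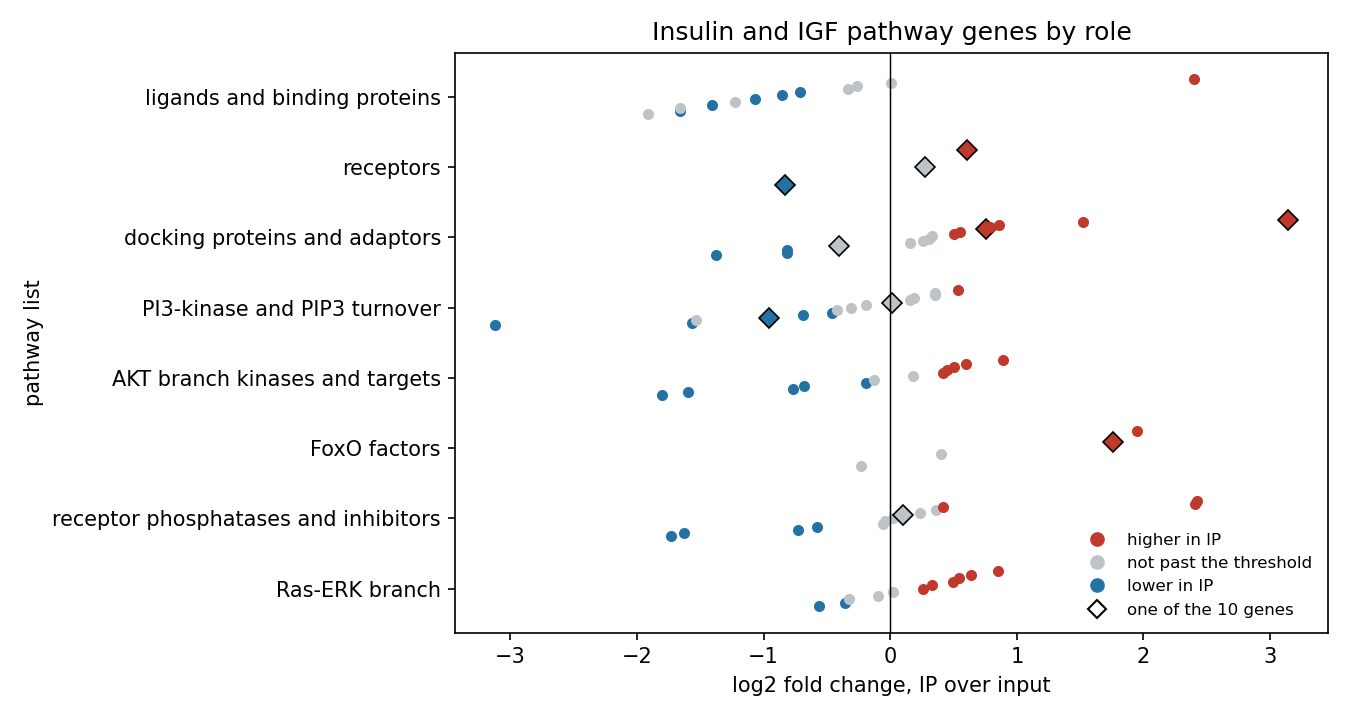
Log2 fold change of IP over input for every tested gene of the pathway lists, 1 point per gene, coloured by its call, with diamonds for the 10 genes described. Most ligand and binding protein genes lie left of 0 and most Ras-ERK branch genes right of it, while the other lists spread to both sides.

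Of 12 ligand and binding protein genes tested, 5 were lower in IP, 1 was higher and 6 were not past the threshold, with a median log2 fold change of -0.96. Over all genes tested 20.9% were lower and 24.5% higher. Igf1, the gene of the ligand of the IGF type 1 receptor, had 4.12, 5.65, 6.39 and 5.81 CPM in IP replicates 1 to 4, against 13.5, 14.3, 15.4 and 15.2 CPM in input replicates 1 to 4, and was lower by a log2 fold change of -1.41 ± 0.17 (adjusted p = 4.08e-05 in edgeR, n = 4). With GC and length offsets Igf1 was at -0.74 (adjusted p = 0.00377) and remained called. Igfbp5, an IGF binding protein gene, was lower by -0.85 ± 0.068 (adjusted p = 1.84e-06). Igf2 stood at -1.07 ± 0.37 (adjusted p = 0.0365), a call lost with library totals alone (adjusted p = 0.0507) and on leaving out any of IP replicates 1, 2 and 3 or of input replicates 2, 3 and 4 (adjusted p 0.0553 to 0.0925). The gene that was higher was Stc2, which encodes stanniocalcin 2, an inhibitor of the protease that cleaves IGF binding proteins (2.40 ± 0.50, adjusted p = 0.00226, and 1.79 without IP replicate 3), at 3.27 ± 2.3 CPM in IP and 0.619 ± 0.12 CPM in input (SD, n = 4). Markers of vascular cells and fibroblasts, cells known to make Igf2, summed to 15.7 to 34.4 CPM in IP against 43.6 to 57.4 CPM in input. Of these 12 markers 4 were lower in IP (33.3%), 0 were higher and 8 were not past the threshold. The part of these cells in the values above was not tested. Ins1 had 0 counts in all 8 libraries, where a count of 0 allows up to 0.0754 CPM in the shallowest, and Insrr, the gene of the insulin receptor-related receptor, had at most 1 count in an IP library and 10 in an input library.

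Adaptor genes were called in both directions, with 5 of 13 higher (38.5%) and 3 lower (23.1%). The shares over all genes tested were 24.5% higher and 20.9% lower. Among the SHC adaptors, which link receptors to Ras, Shc1 was higher (1.52 ± 0.17, adjusted p = 2.33e-05 in edgeR, n = 4) and so was Shc2 (0.86 ± 0.12, adjusted p = 0.000153), whereas Shc3 was lower (-1.37 ± 0.23, adjusted p = 0.000479). Gab1, a docking protein gene, was lower (-0.82 ± 0.17, adjusted p = 0.00223). Of 13 further genes of PI3-kinase and PIP3 turnover 4 were lower (30.8%) and 1 higher (7.69%). Inppl1, the gene of a PIP3 phosphatase, was lower (-1.56 ± 0.29, adjusted p = 0.000968).

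In the AKT branch 5 of 12 genes were higher and 5 lower (41.7% each), against 24.5% and 20.9% over all genes tested. Akt1 was higher (0.45 ± 0.091, adjusted p = 0.00198 in edgeR, n = 4). The AKT phosphatase genes differed in direction, with Phlpp2 higher (0.50 ± 0.086, adjusted p = 0.000608) and Phlpp1 lower (-1.60 ± 0.12, adjusted p = 8.49e-07). Of the Ras-ERK branch 6 of 11 genes were higher (54.5%) and 2 lower (18.2%), with a median log2 fold change of 0.26. Mapk3, the gene of ERK1, was higher (0.85 ± 0.061, adjusted p = 8.59e-07), at 243 ± 12 CPM in IP and 135 ± 4.2 CPM in input (SD, n = 4).

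Of 12 further genes of receptor phosphatases and inhibitors 3 were higher (25%) and 4 lower (33.3%). Among all genes tested these shares were 24.5% and 20.9%. The adaptor-type receptor inhibitors Grb10 and Grb14 differed in direction. Grb10 was higher (0.42 ± 0.081, adjusted p = 0.00135 in edgeR, n = 4), with 197.8, 181.1, 182.0 and 227.7 CPM in IP replicates 1 to 4, against 152.6, 140.3, 151.5 and 145.5 CPM in input replicates 1 to 4. Grb14 was lower (-1.73 ± 0.19, adjusted p = 2.50e-05), with 4.05, 7.60, 6.41 and 5.00 CPM in IP replicates 1 to 4, against 18.4, 18.4, 19.0 and 20.99 CPM in input replicates 1 to 4. The feedback inhibitor gene Socs3 was higher (2.41 ± 0.42, adjusted p = 0.000637), at 4.34 ± 1.7 CPM in IP and 0.810 ± 0.32 CPM in input (SD, n = 4).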

How the data were processed

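Estimated counts per gene were made by the authors with Salmon 0.14.1 on GRCm38.p6, per the submitters' processing notes, and deposited without scaling. The sources used here do not give the annotation release, any trimming or the strand setting. By library, 15.3% to 19.2% of values departed from whole numbers (tolerance 1e-06), so estimated counts were rounded before testing in edgeR 4.0.16 under R 4.3.3 (filterByExpr with a minimum count of 10, TMM factors, quasi-likelihood test of IP against input, no covariate). P-values were adjusted over all 17000 genes tested by the Benjamini-Hochberg method. Standard errors came from the size of the log2 fold change over the root of F, and intervals use the test's degrees of freedom. CPM are TMM-scaled. The fit was tested on simulated data. Groups and replicate numbers came from sample titles. Coordinates, lengths and GC content (longest coding transcript) came from GENCODE M21, which held 98.8% of the identifiers and gave a length for 99.4% of genes tested. No pair of replicates agreed within sampling noise.

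Alternatives were other scalings (RLE, upper quartile, library totals alone), tables without ribosomal and mitochondrial features, no gene filter or a filter of 1 CPM in 4 libraries, DESeq2 1.42.0, limma-voom (limma 3.58.1), a replicate block, offsets for GC content and length (splines with 5 degrees of freedom each) with and without that block, and each library left out in turn. The genes described and the lists were chosen with earlier results of these data known. From each list, the 3 genes with the smallest p in each direction, the ligands and the paralogues of the genes described may be named, and a few of these are not reported here. Genes overlapping another gene have uncertain counts.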

Additional observations from a re-analysis of the deposited data

Results flagged for a closer look

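In 94 groups of 4 libraries, for the genes described and the pathway genes named by rule, 6 had a highest or lowest library set off from the rest by a gap that, as a part of the group's range, was above Dixon's 95% critical value for 4 samples. Chance gives this in about 1 in 20 groups. Among the 10 genes these were Igf1r in input replicate 4, the highest of its fraction at 17.2 CPM, and Irs2 in IP replicate 3, the lowest at 39.5 CPM. Without input replicate 4 the call for Igf1r ended (adjusted p = 0.0574 in edgeR), and without IP replicate 3 the log2 fold change of Irs2 was 0.79. The other such values were Enpp1 in IP replicate 4 at 1.38 CPM, Cbl in input replicate 2 at 70.4 CPM, Mapk3 in input replicate 1 at 128.7 CPM and Foxo6 in IP replicate 1 at 7.38 CPM.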

How the results depend on the processing

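Of the 10 genes, 5 (Irs4, Foxo1, Irs2, Igf2r and Pik3r1) were called in the same direction under all 19 alternatives, and Irs1 and Ptpn1 under none. Igf1r ended as a call with GC and length offsets (-0.61), these offsets with the replicate block (-0.68, adjusted p = 0.052) and without input replicate 4, so the number of genes called lower was then 1. Insr became called with library totals alone (0.38), GC and length offsets (0.50), offsets with the replicate block (0.48) and without IP replicate 2. Pik3ca became called with offsets (0.33) and with offsets and block (0.32), and took a negative sign without a call with RLE factors (-0.021), upper quartile factors (-0.12), no gene filter (-0.00061), the filter of 1 CPM (-0.0096), DESeq2 (-0.022) and limma-voom (-0.0073). Ptpn1 was at -0.034 with upper quartile factors. The causes were not tested. Over the 8 fits with a library left out, log2 fold changes ran from 0.15 to 0.38 for Insr, -0.97 to -0.62 for Igf1r, 0.56 to 0.70 for Igf2r, -0.59 to -0.15 for Irs1, 0.71 to 0.82 for Irs2, 3.08 to 3.22 for Irs4, -0.045 to 0.067 for Pik3ca, -1.11 to -0.87 for Pik3r1, 1.63 to 1.88 for Foxo1 and -0.093 to 0.28 for Ptpn1. In these 8 fits the number of the 10 genes called higher ran from 4 to 5 and lower from 1 to 2, and of other pathway genes from 20 to 25 and from 16 to 25. With GC and length offsets 6 of the 10 genes were called higher, with or without the block. Pik3cd, with a library left out, ran from -0.20 (without IP replicate 3, a change of sign) to 0.63. As shares of raw CPM, Irs4 differed by 21.4 percentage points between the fractions, against 19.0 per kilobase. Library totals alone moved the median log2 fold change of all genes by 0.10, and no gene filter moved it by -0.25 through the genes it added. The replicate block alone changed no call among the 10 genes (Igf1r -0.90, Insr 0.25) and gave 3878 genes higher and 3714 lower over all genes. Deviations of same-numbered libraries correlated at 0.05 to 0.08, under the limit of 0.1 for pairing. Those of IP and input libraries with different numbers correlated at -0.038 to -0.0016. Each of the 4 IP libraries correlated best with the input of its own number, a hint of pairing from the data only.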

Other observations

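A few pathway genes that were too low to be tested had counts in some IP libraries and none in others. These genes were chosen after their values were seen. Ins2, an insulin gene, had 11, 0, 27 and 0 counts in IP replicates 1 to 4, against 4, 0, 0 and 0 counts in input replicates 1 to 4. Pik3r6, a regulatory subunit gene, had 19, 0, 43 and 0 counts in the IP libraries, against 20, 10, 2 and 3 in the input libraries. Igfbpl1 had 57 counts in IP replicate 2 and 0 in the other IP libraries, against 5 to 14 in the input libraries.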
